A study of Rattus norvegicus with 10 samples.

Results

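The 10 genes described here make, sense or destroy prostaglandins: the cyclooxygenases Ptgs1 and Ptgs2, the prostaglandin synthases Ptges, Ptges2, Ptges3 and Ptgds, the prostaglandin E2 receptors Ptger2, Ptger3 and Ptger4, and the breakdown enzyme Hpgd. They were taken by symbol from a matrix of messenger RNA read counts, with one row per symbol, the row with the highest mean count. Of 10 genes sought, 10 had a row among 32041 rows, and 10 were among the 22447 rows with enough counts to be tested. The tissue was a piece of left hippocampus with the dentate gyrus and CA3 of 10 male Sprague-Dawley rats, 1 library per rat. All rats had an electrode in the left lateral amygdala under isoflurane and butorphanol. In 5 rats, numbered 1 to 5, no current was passed (sham), and 5 rats, numbered 6 to 10, received pulses of 400 µA at 60 Hz for 30 min, with a further 10 min where needed, to evoke status epilepticus, which was then stopped with diazepam (stimulated). Tissue was collected after 3 months. By the study's methods all stimulated rats had spontaneous seizures on video EEG, and a record of each rat was not used here.

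Prostaglandins are short-lived lipid signals. Phospholipase A2 enzymes free arachidonic acid from membranes, cyclooxygenases turn it into the common precursor prostaglandin H2, and terminal synthases convert that precursor into prostaglandin E2, D2 and others, which act on receptors of the cell surface. Ptgs1 is regarded as the steadily expressed cyclooxygenase and Ptgs2 as the inducible one. In the forebrain, Ptgs2 is unusual in being expressed by excitatory neurons, where it is induced by synaptic activity and seizures as an immediate early gene.

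The sequences upstream of both cyclooxygenase genes, and of Pla2g4a, the phospholipase gene that neighbours Ptgs2 on the chromosome, are shown because Ptgs2 and Pla2g4a were high in the same stimulated rats and Ptgs1 was not. Each is the 250 bases before the annotated start in RefSeq, build GRCr8, read 5′ to 3′ on the strand of the gene, and capitals mark motif matches. Ptgs2 lies at chr13:64713813-64714062 on the plus strand, Ptgs1 at chr3:39981169-39981418 on the plus strand and Pla2g4a at chr13:64572353-64572602 on the minus strand.
Ptgs2: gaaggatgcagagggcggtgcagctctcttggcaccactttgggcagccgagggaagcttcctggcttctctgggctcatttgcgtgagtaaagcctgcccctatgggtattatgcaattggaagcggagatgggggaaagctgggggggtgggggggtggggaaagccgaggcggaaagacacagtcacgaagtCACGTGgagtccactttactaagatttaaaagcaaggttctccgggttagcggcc
Ptgs1: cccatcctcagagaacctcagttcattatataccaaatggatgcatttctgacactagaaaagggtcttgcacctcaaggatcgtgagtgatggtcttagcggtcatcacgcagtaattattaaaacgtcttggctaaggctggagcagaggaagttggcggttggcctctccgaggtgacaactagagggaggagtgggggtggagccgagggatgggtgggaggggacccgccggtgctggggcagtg
Pla2g4a: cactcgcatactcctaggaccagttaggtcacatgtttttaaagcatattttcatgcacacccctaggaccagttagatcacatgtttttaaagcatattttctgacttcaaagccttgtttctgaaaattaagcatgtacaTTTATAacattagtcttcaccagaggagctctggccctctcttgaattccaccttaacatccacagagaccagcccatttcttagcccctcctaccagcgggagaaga
On both strands, 6 motifs were searched: an E-box, a cyclic AMP response element with its half-site, an AP-1 site, a TATA box and the CArG core of the serum response element. The letters of the E-box were CACGTG. The full cyclic AMP response element was TGACGTCA. Its half-site, which the full element contains, was TGACG. The AP-1 site was searched as TGANTCA, which overlaps none of the others in full. The TATA box was TATAAA. The E-box matched in the Ptgs2 window at positions -55 to -50, counted back from the start, and 5.59% of 33469 promoters of this length held one. The window of Ptgs1 held no match, and that of Pla2g4a held a TATA match, read on the opposite strand, at -108 to -103, as did 12.9% of promoters on either strand. Among the windows of the other 7 genes that had an entry, Ptges3 and Hpgd held a TGACG half-site, present in 18.2% of promoters. The full response element occurred in 1.59% of promoters, the AP-1 site in 6.34% and the CArG core in 1.50%, and these were not found in the windows of the 9 prostaglandin genes with an entry. Such matches describe letters and not bound sites.

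Aligned counts ran from 13552309 in sham rat 2 to 24086059 in sham rat 4, so 3 counts correspond to 0.125 to 0.221 CPM (counts scaled to a common library total). These 2 values leave out the scaling factors that were applied to the levels below. Sham rat 2 stood somewhat apart, with a mean correlation of 0.972 to the other sham rats over log2 CPM against 0.981 to 0.983 for the rest. Stimulated rats were less alike, at 0.961 to 0.968. Unaligned reads are given as a share of unaligned reads plus the counts of all rows, not of all reads sequenced. This share was lowest in stimulated rat 7, at 32.0%. It was 41.4%, 42.9% and 45.1% in stimulated rats 8, 9 and 10, against 32.8 to 37.1% in sham rats. Levels are compared below between rats and not between genes, because reads were not scaled by transcript length.

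It was first asked how many of the 10 genes differed between stimulated and sham rats. In edgeR's quasi-likelihood test, 0 of the 10 had an adjusted p-value under 0.05, as had 0 of all 22447 features (0%), a feature being 1 row of the matrix. At an unadjusted p-value under 0.05, 1 gene, Ptgs2, was higher in stimulated rats, where 6.7% of all features were, and 1 gene, Ptger2, was lower, where 3.16% were. The fold change was positive for 4 genes and negative for 6, with a median log2 fold change of -0.08 against 0.01 over all features. None of the 10 genes had groups that did not overlap, a pattern held by 0.695% of all features in the higher and 0.597% in the lower direction. These counts were near the background. Single genes, and single rats within genes, differed more, as the plot of all 10 genes by rat shows.

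**Figure D1:**
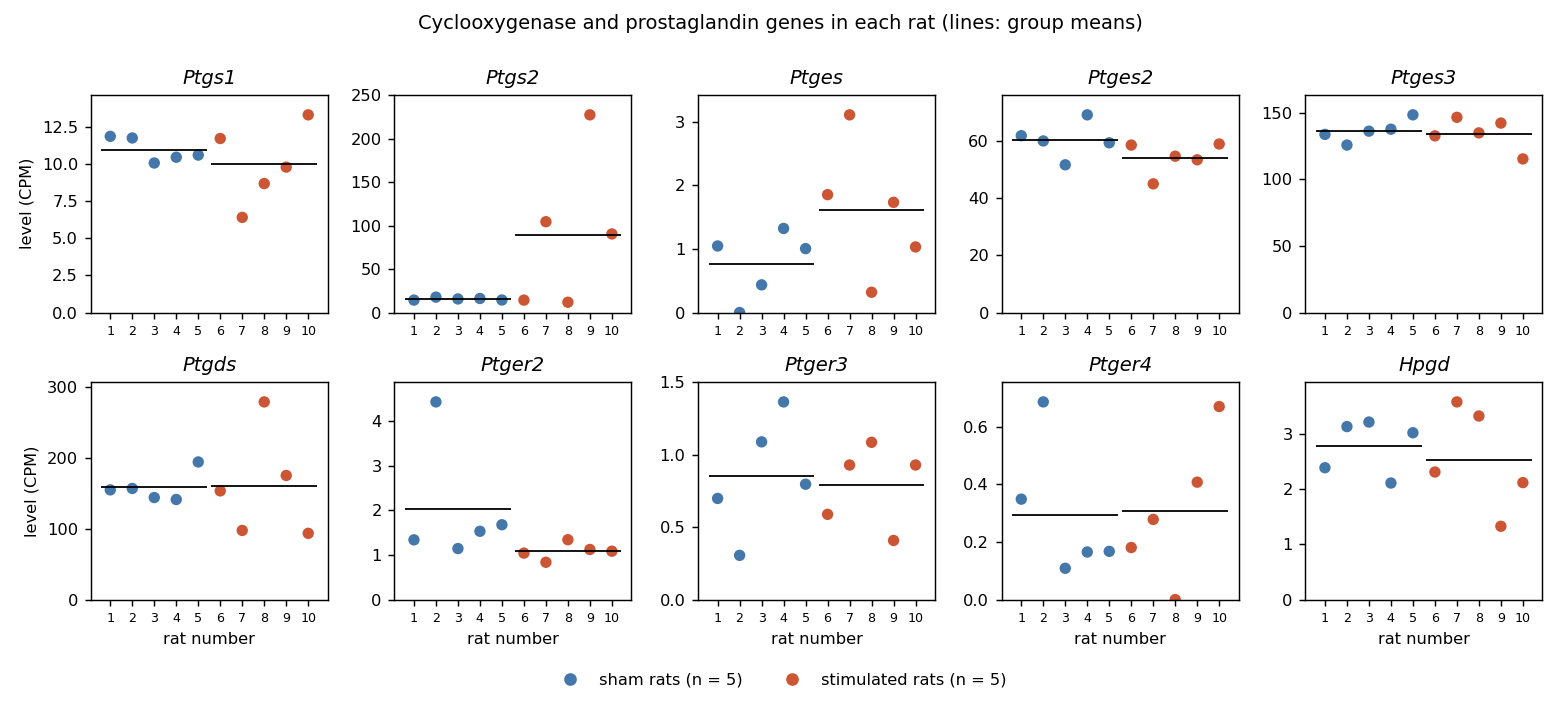
Level of each of the 10 genes in each rat, in CPM on linear axes that start at 0, with rat number on the horizontal axis. Points are single rats, blue for sham and orange for stimulated, and lines are group means. Ptgs2 reached 90.4 to 227 CPM in stimulated rats 7, 9 and 10 and 11.8 to 17.7 CPM in the other 7 rats.

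Ptgs2 (NM_017232), the inducible cyclooxygenase, was even among sham rats and uneven among stimulated rats. Its level was 14.3, 17.7, 15.6, 16.2 and 14.4 CPM in sham rats 1 to 5. In stimulated rats 6 to 10 it was 14.3, 104, 11.8, 227 and 90.4 CPM. Thus 3 stimulated rats exceeded all sham rats and 2 did not, rat 8 below all sham rats and rat 6 level with the lowest of them within counting error, so the groups overlapped. The 3 high rats had 6.68, 14.5 and 5.78 times the sham mean in rats 7, 9 and 10. Counting error was small beside this: the 4459 reads of rat 9 have a 95% exact Poisson interval of 4329 to 4592, and the 185 reads of rat 8 one of 159 to 214, which cover counting error only. The sham mean was 15.6 ± 1.40 CPM and the stimulated mean 89.7 ± 88.0 CPM (SD, n = 5 each). The log2 fold change was 2.52 (SE 0.623), larger than that of 99.7% of features. In edgeR's quasi-likelihood test, Ptgs2 ranked 59 by p-value (unadjusted p of 0.00125, adjusted p of 0.376). The call depended on the test, since edgeR's likelihood ratio test called Ptgs2 (adjusted p = 0.0163) among 0.53% of features and DESeq2 did not (adjusted p = 0.0913), with 0.147% called. With limma-voom the adjusted p was 0.536. The log2 fold change was 1.82 without stimulated rat 9 and 1.75 with limma-voom.

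The unevenness is given as a description with no test, because it was known from earlier results of these data. The SD of log2 CPM of Ptgs2 was 0.126 in sham and 1.88 in stimulated rats (n = 5 each), a ratio of 14.9. Only 19 of 22447 features (0.0846%) had a ratio this high, and the median ratio over all features was 1.37, so stimulated rats varied more than sham rats in general.

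Fos, an immediate early transcription factor that marks recently active neurons, was high in the same 3 libraries. Its level was 3.26, 3.89, 4.14, 4.01 and 5.32 CPM in sham rats and 5.61, 106, 5.24, 50.3 and 61.7 CPM in stimulated rats 6 to 10. The orders differed: rat 7 had the most Fos and rat 9 the most Ptgs2. Of the 12 immediate early genes listed, 10 were higher at an unadjusted p under 0.05 and 0 were lower, where 6.7% and 3.16% of all features were. Their summed level was 169 to 216 CPM in sham rats and 223, 781, 163, 1766 and 733 CPM in stimulated rats 6 to 10, so rat 9 was highest for this sum as for Ptgs2. The part of these genes in the Ptgs2 result was not tested. Of 8 listed genes of inflammatory induction, 6 had a row, and their summed level was 20.0 to 30.2 CPM in sham rats and 18.9 to 78.6 CPM in stimulated rats, highest in rat 7. Of the cytokine genes of the list, Il1b, Tnf and Il6 had few reads, and the chemokine gene Ccl2 had many in rat 7. Ccl2 had 0 to 6 reads in sham rats and 2, 798, 0, 11 and 11 in stimulated rats 6 to 10. In rat 7 it made up 37.1 CPM of the summed level. Il1b had 0 to 12 reads in sham rats and 0, 9, 0, 0 and 16 in stimulated rats 6 to 10. Tnf had 0 to 12 reads in sham rats and 3, 26, 2, 10 and 5 in stimulated rats. Il6 had 0 to 2 reads in sham rats and 21 in rat 7, with 0 in the other stimulated rats. Rat 7 thus had the most Tnf, Il6 and Ccl2 reads. The other listed genes with a row were Nfkbia and Tlr4. Nfkbia made up most of the summed level in sham rats, at 18.7 to 28.5 CPM. In stimulated rats 6 to 10 it was at 17.6, 38.6, 22.0, 21.1 and 33.3 CPM. Tlr4 was at 0.712 to 2.01 CPM in sham rats. It was below all of these in stimulated rats 7 and 8, at 0.325 and 0.575 CPM. The part of these listed genes in the Ptgs2 values was not tested.

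The features whose pattern over the 10 rats was nearest to that of Ptgs2, by the mean absolute difference of centred log2 CPM, were Nptx2, Cimap2, Egr4, Ccnf and Baz1a. This difference was 0.189 to 0.282 for these 5, against a median of 1.31 over 12969 features with a symbol. Nptx2, a secreted pentraxin of excitatory synapses, was at 41.5 to 52.0 CPM in sham rats and at 47.5, 558, 38.6, 783 and 235 CPM in stimulated rats 6 to 10. Egr4, a zinc finger immediate early factor, was at 13.5 to 16.9 CPM in sham rats and at 14.0, 96.3, 10.3, 124 and 58.4 CPM in stimulated rats. All 5 features shared with Ptgs2 the order of stimulated rats 9, 7 and 10, which follows in part from choosing them by pattern. Cimap2 had few reads, at 0 to 0.0419 CPM in sham rats and 0, 0.557, 0, 1.43 and 0.310 CPM in stimulated rats 6 to 10.

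Ptgs1 (NM_017043), the steadily expressed cyclooxygenase, had levels of 11.9, 11.8, 10.1, 10.5 and 10.6 CPM in sham rats. In stimulated rats 6 to 10 it had 11.7, 6.41, 8.68, 9.79 and 13.3 CPM. Stimulated rats 7, 8 and 9 were below all sham rats, rat 10 was above them and rat 6 was within their range. The log2 fold change was -0.13 (SE 0.175, edgeR adjusted p = 0.841). Within a library, the ratio of Ptgs2 to Ptgs1 reads needs no scaling between rats. It was 1.21 to 1.55 in sham rats, 1.22 and 1.36 in stimulated rats 6 and 8, and 16.3, 23.2 and 6.79 in stimulated rats 7, 9 and 10. In these 3 rats Ptgs1 itself was at 0.585, 0.894 and 1.22 times its sham mean, so Ptgs2 made up most of the difference in the ratio. Ptgs1 is known from microglia in the brain. The summed level of 12 microglial markers was 472 to 575 CPM in sham rats and 505, 737, 528, 697 and 597 CPM in stimulated rats 6 to 10. It was highest in rat 7, where Ptgs1 was lowest, and the 3 rats with high Ptgs2 were all above every sham rat. In rats 7, 9 and 10, respectively 6, 9 and 4 of these markers exceeded all sham rats. Their part in the Ptgs1 and Ptgs2 values was not tested. Those nearest to Ptgs1 in pattern were Tspoap1, Repin1, Zdhhc4, Nherf1 and Elapor2, at a mean difference of 0.0815 to 0.102 against a median of 0.287.

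**Figure D2:**
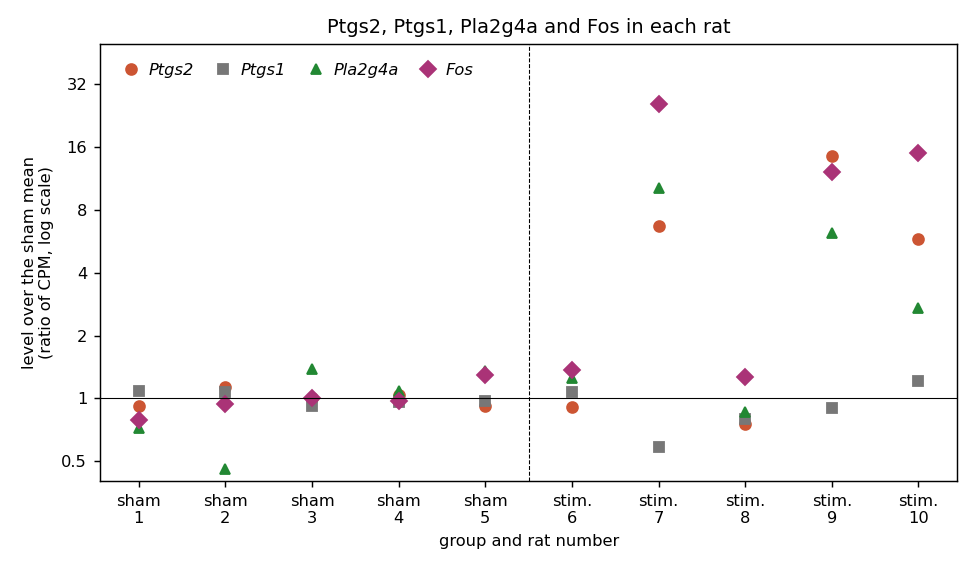
Level of Ptgs2, Ptgs1, Pla2g4a and Fos in each rat, as a ratio of CPM to the mean of the 5 sham rats, on a log axis, with sham rats to the left of the dashed line. Each point is 1 rat. Ptgs2, Pla2g4a and Fos lay well above all sham rats in stimulated rats 7, 9 and 10, where Ptgs1 was at 0.585 to 1.22 times its sham mean.

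Pla2g4a (NM_133551), the cytosolic phospholipase A2 that frees arachidonic acid for the cyclooxygenases, is not among the 10 genes but had the largest fold change of the 23 other tested genes of the pathway. It was at 1.92, 1.22, 3.70, 2.89 and 3.60 CPM in sham rats. In stimulated rats 6 to 10 it was at 3.35, 27.3, 2.30, 16.5 and 7.22 CPM. The 3 rats with high Ptgs2 were again above all sham rats, at 10.2, 6.19 and 2.71 times the sham mean in rats 7, 9 and 10, while rats 6 and 8 lay within the sham range. The log2 fold change was 2.07 (SE 0.572), with an unadjusted p of 0.00294 and an adjusted p of 0.380 in edgeR's quasi-likelihood test. The value was 1.44 without stimulated rat 7. The likelihood ratio test called it (adjusted p = 0.0469), and DESeq2 (adjusted p = 0.155) and limma-voom (adjusted p = 0.540) did not.

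In the RefSeq gene table of GRCr8, Pla2g4a is the nearest protein-coding gene on one side of Ptgs2, with a pseudogene and the long non-coding gene Ptgs2os between them. These 2 had no row by symbol. On the other side the nearest protein-coding gene is Pdc, a phosphoprotein of photoreceptors, which had 0 to 0.407 CPM over all rats and was too low to be tested. Of the nearest protein-coding genes on either side of Ptgs2, Pla2g4a was thus the one with enough reads to be tested.

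Among the synthases of prostaglandin E2, Ptges (NM_021583) encodes the inducible microsomal enzyme that is coupled to Ptgs2 in inflammation. It had few reads, 0 to 32 in sham rats and 5 to 67 in stimulated rats. Its level was 1.05, 0, 0.435, 1.32 and 1.01 CPM in sham rats, where the 0 of rat 2 allows up to 0.221 CPM. In stimulated rats 6 to 10 it was 1.86, 3.11, 0.319, 1.73 and 1.03 CPM. Rats 6, 7 and 9 were above all sham rats, a set that differs from that of Ptgs2 by rats 6 and 10. The log2 fold change of 1.03 (SE 0.603) had an unadjusted p of 0.110 and an adjusted p of 0.584 by edgeR.

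Ptges2 (NM_001107832), a membrane-bound synthase, and Ptges3 (NM_001130989), the cytosolic synthase that is also the p23 co-chaperone of Hsp90, had the most even values of the set. Ptges2 was at 61.8, 60.0, 51.7, 69.1 and 59.3 CPM in sham rats and at 58.5, 45.0, 54.7, 53.4 and 58.9 CPM in stimulated rats 6 to 10. Its log2 fold change was -0.16 (SE 0.102, edgeR adjusted p = 0.623). Ptges3 was at 126 to 148 CPM in sham rats and at 133, 147, 135, 142 and 115 CPM in stimulated rats 6 to 10. Its log2 fold change was -0.02 (SE 0.084, edgeR adjusted p = 0.953). Stimulated values lay mostly within the sham range for both genes, with 1 stimulated rat below it in each. Reads of Ptges3 may be shared with its pseudogene Ptges3-ps1 and the similar Ptges3l1, so its level is uncertain.

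Ptgds (NM_013015), which makes prostaglandin D2 and is also a lipid carrier of the cerebrospinal fluid, is known from the meninges, choroid plexus and oligodendrocytes. Its level was 155, 157, 144, 141 and 194 CPM in sham rats. In stimulated rats 6 to 10 it was 153, 97.4, 278, 175 and 93.3 CPM. The group means were 158 ± 21.2 and 159 ± 75.3 CPM (SD, n = 5 each), and the log2 fold change was 0.01 (SE 0.243, edgeR adjusted p = 0.992). Single stimulated rats lay on both sides of the sham range. Rat 8 was above it, at 1.76 times the sham mean, and rats 7 and 10 were below it, at 0.617 and 0.591 times. Without rat 8 the log2 fold change was -0.30 (unadjusted p = 0.118).

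Markers of the cells that hold Ptgds moved with some of these values and not with others. The summed level of 10 meningeal fibroblast markers was 45.1 to 65.1 CPM in sham rats and 63.0, 56.6, 124, 66.1 and 68.9 CPM in stimulated rats 6 to 10, so rat 8 was highest for both. Rats 9 and 10 were also above all sham rats for this sum, although rat 10 had the least Ptgds. In rat 8, 9 of these 10 markers were above all sham rats and 7 were at their highest of all rats. The exceptions to the latter were Dcn, Lum and Mgp, which peaked in rats 9, 10 and 7, and Lum was within its sham range in rat 8. The summed level of 9 oligodendrocyte markers was 2771 to 3997 CPM in sham rats and 3170, 2239, 3279, 3771 and 3664 CPM in stimulated rats 6 to 10. Rat 7 was lowest for these markers and low for Ptgds, but rat 10, with the least Ptgds, was within the sham range of oligodendrocyte markers. Choroid plexus markers summed to 2.40 to 17.6 CPM in the sham and 7.55 to 27.5 CPM in the stimulated group, highest in rat 10. The part of these cells in the Ptgds values was not tested, and in pieces of whole tissue fewer cells of a type and less RNA per cell cannot be told apart. Nt5c3b, Map6d1, Arhgap15, Klhl4 and Esrrg were nearest to Ptgds in pattern, at 0.136 to 0.166 against a median of 0.381.

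**Figure D3:**
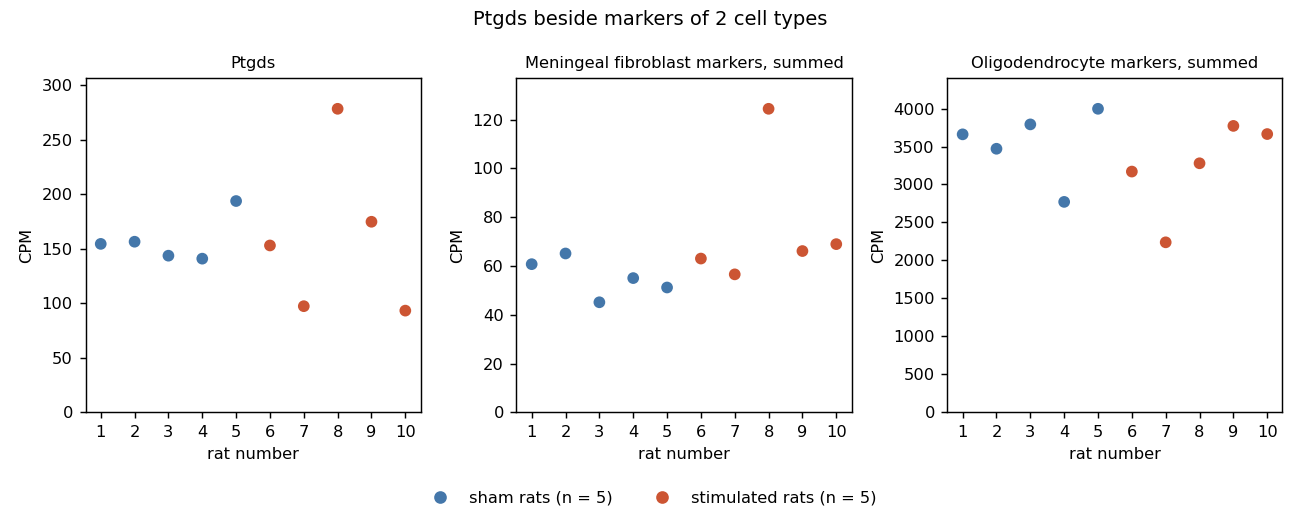
Level of Ptgds and the summed levels of meningeal fibroblast and oligodendrocyte markers in each rat, in CPM on linear axes that start at 0. Points are single rats, blue for sham and orange for stimulated. Rat 8 was highest for Ptgds (278 CPM) and for the meningeal markers (124 CPM), and rat 7 was lowest for the oligodendrocyte markers (2239 CPM).

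The receptors for prostaglandin E2 all had few reads. Ptger2 (NM_031088), the EP2 receptor, which raises cyclic AMP, was at 1.34, 4.43, 1.14, 1.53 and 1.68 CPM in sham rats. In stimulated rats 6 to 10 it was at 1.04, 0.836, 1.34, 1.12 and 1.08 CPM, and 4 of 5 stimulated rats were below all sham rats. The log2 fold change was -0.87 (SE 0.364), with an unadjusted p of 0.0316 and an adjusted p of 0.454 in edgeR's quasi-likelihood test. This rested largely on sham rat 2, the library with the fewest reads, whose 58 reads have a 95% exact Poisson interval of 44.0 to 75.0. Without it the log2 fold change was -0.41 (SE 0.252, unadjusted p = 0.132, edgeR).

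Ptger3 (NM_012704), the EP3 receptor, which lowers cyclic AMP, was at 0.698, 0.305, 1.09, 1.36 and 0.796 CPM in sham rats and at 0.588, 0.929, 1.09, 0.408 and 0.929 CPM in stimulated rats. Every stimulated value was within the sham range, and the log2 fold change was -0.15 (SE 0.399, edgeR adjusted p = 0.928). Ptger4 (NM_032076), the EP4 receptor, which raises cyclic AMP, had 2 to 9 reads in sham rats and 0 to 13 in stimulated rats. It was at 0.109 to 0.687 CPM in sham rats and at 0.181, 0.279, 0, 0.408 and 0.671 CPM in stimulated rats 6 to 10, where the 0 allows up to 0.192 CPM. The log2 fold change of Ptger4, 0.17, had an SE of 0.705 (edgeR adjusted p = 0.957), so a difference was not detectable at this depth.

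Hpgd (NM_024390), the dehydrogenase that starts the inactivation of prostaglandins, was at 2.39, 3.13, 3.21, 2.11 and 3.02 CPM in sham rats and at 2.31, 3.58, 3.32, 1.33 and 2.12 CPM in stimulated rats 6 to 10. Rats 7 and 8 were just above the sham range and rat 9, which had the most Ptgs2, was below it. The log2 fold change was -0.13 (SE 0.262, edgeR adjusted p = 0.905).

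The rest of the pathway was then read from the same fit. Of 29 further prostanoid genes listed, 26 had a row and 23 were tested, and 0 had an adjusted p under 0.05. At an unadjusted p under 0.05, 2 were higher (Pla2g4a and Abcc4) and 1 was lower (Prxl2b), and 0 had groups that did not overlap. These are 2 and 1 of 23 genes, where 6.7% of all features were higher and 3.16% lower at this threshold, so the counts were near the background. Their median log2 fold change was 0.22 against 0.01 over all features. Of 12 genes that supply arachidonic acid, 9 were tested and 1, Pla2g4a, had an unadjusted p under 0.05. Mgll, the lipase that yields arachidonic acid from an endocannabinoid, had the most reads of this role and was at 92.7 to 110.4 CPM in sham rats and 62.7 to 101 CPM in stimulated rats. Its log2 fold change was -0.20 (SE 0.120, edgeR adjusted p = 0.594).

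Prxl2b (NM_001108697), which makes prostaglandin F2 alpha and its amides, was the 1 of 5 other synthases with an unadjusted p under 0.05. It was at 40.3, 44.3, 31.7, 38.9 and 39.4 CPM in sham rats and at 31.1, 24.2, 30.4, 23.4 and 38.1 CPM in stimulated rats 6 to 10. All stimulated rats except rat 10 were below all sham rats, and the log2 fold change was -0.40 (SE 0.138, unadjusted p = 0.0117, adjusted p = 0.411, edgeR).

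Abcc4 (NM_133411), a membrane pump that exports prostaglandins, was the 1 of 6 transport and turnover genes with an unadjusted p under 0.05. It was at 9.37, 11.5, 9.47, 11.3 and 9.68 CPM in sham rats and at 12.8, 9.15, 13.4, 13.5 and 16.5 CPM in stimulated rats 6 to 10. All stimulated rats except rat 7 were above all sham rats, and the log2 fold change was 0.35 (SE 0.153, unadjusted p = 0.0394, adjusted p = 0.474, edgeR). The unadjusted p was above 0.05 with upper quartile factors (0.0602), with limma-voom (0.0566) and without any 1 of sham rats 1, 3 and 5 or stimulated rats 6, 8, 9 and 10, the highest being 0.117 without rat 10. Ptgr2, a reductase of prostaglandin metabolites and the most abundant of this role by reads, had a log2 fold change of -0.03 (SE 0.114, edgeR adjusted p = 0.958). Of 6 other receptors, 3 were tested and 0 had an unadjusted p under 0.05, and Tbxa2r, the thromboxane receptor, had a log2 fold change of 0.22 (SE 0.249, edgeR adjusted p = 0.798).

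**Figure D4:**
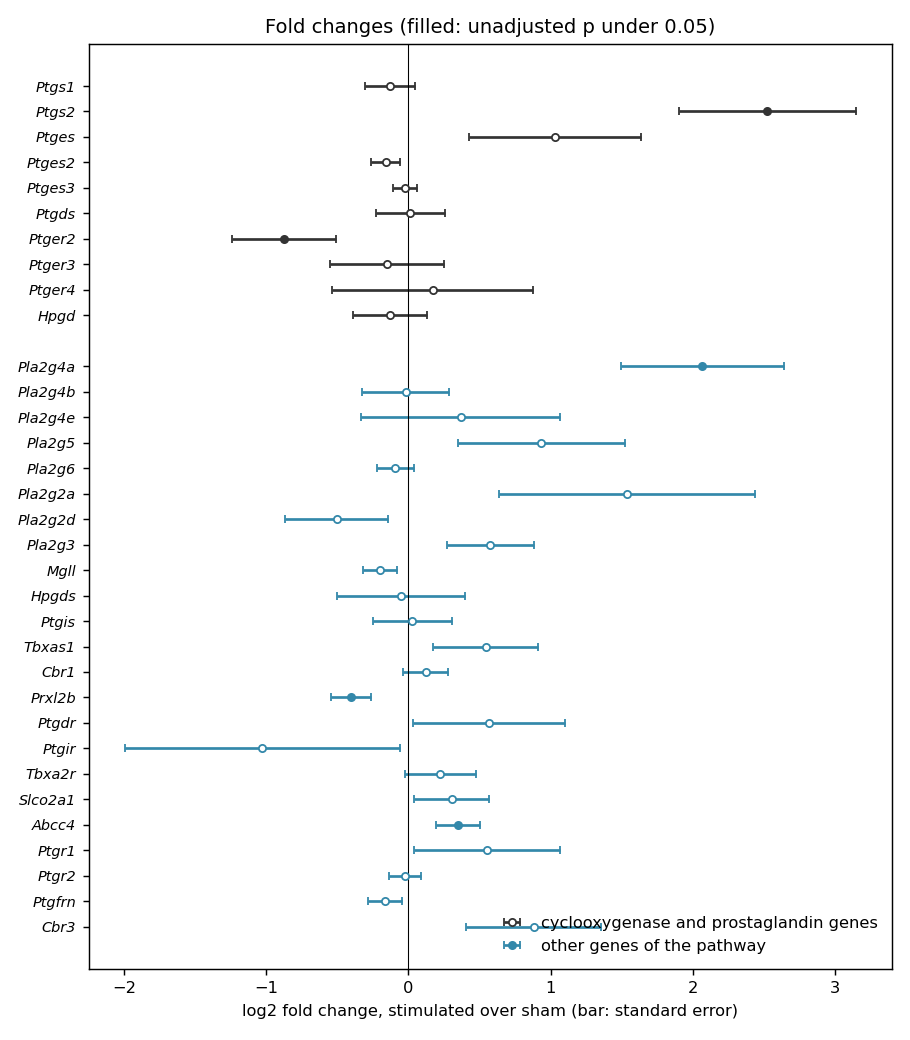
Log2 fold change of stimulated over sham rats with its standard error for the 10 genes (dark) and the 23 other tested genes of the pathway (blue), with a vertical line at 0. Filled points had an unadjusted p under 0.05 in edgeR's quasi-likelihood test. Ptgs2 (2.52) and Pla2g4a (2.07) lay farthest to the right of the line.

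The labelled tissue was checked against marker lists. Dentate granule cell markers summed to 243 to 298 CPM in the sham and 159 to 355 CPM in the stimulated group, lowest in rat 7 and highest in rat 9, and Dsp had no row. Of the CA3 markers, Grik4 made up nearly all of the 139 to 161 CPM in the sham and 142 to 167 CPM in the stimulated group, and Iyd, with 0.233 and 0.162 CPM on average, was near absent. General neuronal markers summed to 2878 to 3156 CPM and 2622 to 3221 CPM. Astrocyte markers summed to 3451 to 3923 CPM in sham rats and to 3519, 8798, 3606, 4709 and 7646 CPM in stimulated rats 6 to 10, so the 3 rats with high Ptgs2 were also above all sham rats for this sum. Gfap was at 6469, 2079 and 5396 CPM in rats 7, 9 and 10 against 1327 to 1927 CPM in sham rats. It made up most of the sum in rats 7 and 10 but not in rat 9. Without Gfap the sum was 1953 to 2314 CPM in sham rats and 2193, 2329, 2231, 2631 and 2250 CPM in stimulated rats 6 to 10. Rats 7 and 10 thus lay close to or within the sham range, and rat 9 was above it. Of the 7 astrocyte markers with a row, 4, 6 and 3 exceeded all sham rats in rats 7, 9 and 10. In these rats 2, 0 and 1 were below all sham rats. Aqp4 was above all sham rats in all 5 stimulated rats, at 126 to 192 CPM against 88.2 to 121 CPM. Aldh1l1, the 1 of the 7 with a negative log2 fold change, was below all sham rats in rats 7 and 10. Its level there was 16.4 and 29.3 CPM, against 40.5 to 50.9 CPM in sham rats. Endothelial markers summed to 255 to 286 CPM in sham rats and 231 to 474 CPM in stimulated rats, highest in rat 10. The part of these lists in the values of the prostaglandin genes was not tested.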

How the data were processed

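Polyadenylated RNA of 10 rat hippocampi was sequenced in single reads of 36 cycles. The deposited values are raw counts per transcript, made by the authors, who aligned reads to build rn4 with BWA at its default settings and counted them with their own script. The study's methods name an Ensembl annotation, while rows carry RefSeq identifiers. The use of strand and the treatment of reads shared between rows were not stated. The spans of Ptges2, Ptges3, Ptger2, Ptger3 and Ptger4 each overlap that of another gene in GRCr8. Exons and strands of such pairs were not compared, so some of their reads may not be told apart. The methods count fewer stimulated rats for this assay than the labels and do not say which was left out, so all 10 were used. Replicates are single rats and carry no batch label.

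The row that counts unaligned reads was left out. Rows with a summed count under the 30th percentile (46 counts) were left out, following the study, and 22447 were tested with edgeR 4.0.16 in R 4.3.3 (quasi-likelihood test, TMM factors, Benjamini-Hochberg adjustment over all tested rows). CPM used TMM-scaled library sizes, and log2 CPM a prior count of 2. Alternatives were other scalings, filters and tests (DESeq2 1.42.0, limma 3.58.1) and the omission of each rat. Symbols came from RefSeq by transcript identifier. The fit was tested on simulated data that gave both groups the spread of the sham rats. It therefore does not cover the wider spread of the stimulated rats. The genes, lists and tests were chosen with earlier results of these data known. Named were all 10 genes, other pathway genes with an unadjusted p under 0.05 or the most reads of their role, the 5 features nearest in pattern to Ptgs2, Ptgs1 and Ptgds, and marker sums. Single markers (Il1b, Tnf, Il6, Ccl2, Nfkbia, Tlr4, Gfap, Aqp4, Aldh1l1, Dcn, Lum and Mgp) and the genes beside Ptgs2 were chosen after their values were seen. Plots were drawn with matplotlib 3.10.9, and scipy 1.17.1 gave exact intervals.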

Additional observations from a re-analysis of the deposited data

Results flagged for a closer look

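Among 32 groups of 5 rats examined (16 genes in sham and in stimulated rats), 2 held a rat whose gap to the nearest of its group, divided by the whole range of that group, exceeded 0.71, and 1.6 are expected by chance. Ptger2 in sham rat 2 had a share of 0.838: it was at 4.43 CPM (58 reads), and the other sham rats were at 1.14 to 1.68 CPM. Tbxa2r in sham rat 4 had a share of 0.776, with 1.24 CPM (30 reads) against 0.992 to 1.05 CPM in the other sham rats.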

How the results depend on the processing

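No paired analysis was possible because the labels number the rats 1 to 10 and the groups share no number. The main count of features with an adjusted p under 0.05 was 0; the likelihood ratio test gave 119 and DESeq2 33. Of the 10 genes the likelihood ratio test called 1 (Ptgs2), and of the other pathway genes 1 (Pla2g4a). With single rats left out, 0 features, 0 of the 10 genes and 0 of the other pathway genes were called, and 1693 to 3131 features, 1 to 3 of the 10 genes and 2 to 5 of the other pathway genes had an unadjusted p under 0.05. The count of the 10 genes at that threshold, 2 in the main test, was 1 with limma-voom and without sham rat 2, stimulated rat 6 or stimulated rat 7, and the other pathway genes numbered 5 without sham rat 2. The SD ratio of Ptgs2 was 12.9 to 21.9 with single rats left out. Over these omissions the log2 fold change was 1.82 to 2.79 for Ptgs2, 1.44 to 2.30 for Pla2g4a and -1.02 to -0.41 for Ptger2.

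Of the values of single genes, 315 kept their direction and side of the threshold, 2 passed it and 18 changed sign. These last were all of genes whose unadjusted p in the main test was above 0.05. Ptgds was at -0.0092 with upper quartile factors and -0.11 with limma-voom, and Ptger4 at -0.035 with limma-voom. With single rats left out, Ptgds ran from -0.30 to 0.15, Ptges3 from -0.056 to 0.028, Ptger3 from -0.35 to 0.092, Ptger4 from -0.30 to 0.66, Hpgd from -0.29 to 0.033 and Ptgr2 from -0.13 to 0.020. The cause was not tested. Ptger4 had too few reads for the filter of 10 counts in 4 samples. An alternative setting of the edgeR fit (adjusted deviances), added after the data were seen, called 0 of the 10 genes. Depth limits what can be read from Ptges and the receptors, whose groups averaged 0.296 to 2.02 CPM.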

Other observations

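The lipoxygenase branch, which turns the same arachidonic acid into leukotrienes, had 10 of 10 genes with a row, 6 tested and 0 at an unadjusted p under 0.05, with log2 fold changes of -0.28 to 0.66. Lta4h, which makes leukotriene B4, had the most reads of these and averaged 34.8 CPM in the sham group and 35.2 CPM in the stimulated group (log2 fold change 0.02, SE 0.175). The receptors Cysltr1, Cysltr2, Ltb4r and Ltb4r2 were too low to be tested.

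The chemokine gene Ccl2 was at 0 to 0.327 CPM in sham rats and at 37.1 CPM in stimulated rat 7, with 0 to 0.568 CPM in the other stimulated rats. Rat 7 also had the most Ptges (3.11 CPM), the most Pla2g4a (27.3 CPM) and the least Ptgs1 (6.41 CPM).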
